A study of Mus musculus with 16 samples.

Results

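The skeletal muscle contractile genes described here were a module of 40 named genes, and every probe that carried one of their symbols was taken. Of the 40, 37 had a probe on the array, out of 16593 genes with a named probe, and Myh2, Cacna1s and Neb had none. They held 52 of the 25697 probes. A detection p-value below 0.05 on at least 4 of the 16 arrays was reached by 47 of these probes, and 35 of the 40 genes were among the 10232 genes tested. Of the 35, 16 are known as genes of fast fibres, 8 as genes of slow fibres and 11 belong to no single fibre type. The probe of Myh7, the slow myosin heavy chain, was detected on 1 array and that of Trdn, which anchors the calcium release complex, on 0 arrays, so neither was tested.

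Striated muscle contracts when myosin heads of the thick filament pull on actin of the thin filament, and calcium from the sarcoplasmic reticulum starts the cycle through the troponins. Fast and slow fibres carry different isoforms of the same proteins, fast fibres lean on glycolysis and slow fibres on oxygen held by myoglobin. Mouse dorsal skin carries a thin sheet of striated muscle at its base, the panniculus carnosus, which is known as mainly fast. In RNA from whole skin, fewer muscle cells and less muscle RNA per cell cannot be told apart.

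The RNA came from dorsal skin of mice aged 15 days, whose strain is given as mixed C57/BL6 and 129Ola, and was read on Illumina bead arrays. The 16 arrays made 4 groups of 4. Double mice carried Krox20-cre with both the Shp2fl and the Mek1fstop allele. Mek1gof mice carried Krox20-cre and 1 Mek1fstop allele, labelled gain of function. Shp2lof mice carried Krox20-cre and the Shp2fl allele, labelled loss of function. The genotype of the control mice is not stated further in the labels. Krox20 is the transcription factor gene Egr2, known to be active in Schwann cells and hair follicles. Nothing in the labels ties the samples of a group to separate animals. Arrays of both sexes, by the genes below, lay within Double, Mek1gof and control, so those groups held more than 1 animal each, and how much of the spread between samples is technical was not tested.

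Array medians of the deposited signal ran between 71.3 and 95.9, and between 13022 and 13959 probes were detected on an array. Replicates 1 and 2 of every group lay on slide 1 and replicates 3 and 4 on slide 2, and the position on a slide went with the group, so position and group cannot be told apart. Sex is not given in the labels, and Xist, expressed from the inactive X chromosome of females, and the Y-linked Eif2s3y were read in its place. Eif2s3y stood above 10 on Double 3, Mek1gof 3 and 4, Shp2lof 1, 2 and 3 and control 1 and 3. Xist stood above 9 with Eif2s3y at 5.10 or below on Double 1 and 2, Mek1gof 1 and control 2 and 4. The groups thus differed in how many arrays of each kind they held. Each control slide held 1 array of each kind, while in Mek1gof, and in Double 1 to 3, slide and Xist level went together and cannot be told apart. Shp2lof 4 and Mek1gof 2 carried both Xist (9.12 and 8.82 on the log2 scale) and the Y-linked Eif2s3y (8.01 and 6.77). Double 4 carried an Xist level of 6.96 with Eif2s3y at 4.39. The count of members past the threshold is given with and without these 3 arrays for every comparison. Levels below are on the log2 scale after background correction and quantile normalization, a difference of 1 is a 2-fold change, and the threshold is a Benjamini-Hochberg adjusted p of 0.05 from limma over all 10232 genes. Levels of different genes come from different probes and are not set against each other.

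Promoter sequence was looked up because most of these genes varied together from array to array. RefSeq windows on GRCm38.p6 were found by symbol for 31 of the 40 genes, 38 windows in all, and the 250 bases before each start were searched. The E-box CANNTG, the site of MyoD-type factors among others, was held by 27 of the 31 genes (87.1%), against 69.3% of all 27025 genes with a window. Its form CAGCTG, which reads the same on both strands, was held by 17 of the 31 (54.8%), against 14.7% of all genes. By class, CAGCTG was in 7 of 13 fast, 5 of 9 slow and 5 of 9 other genes. The MEF2 motif, searched on both strands, was in 6 of the 31 genes (19.4%, against 2.0% of all) and the CArG box in 4 (12.9%, against 1.6%). No E-box overlapped a MEF2 motif or a CArG box in the 38 windows. These matches describe letters in a window and do not show binding. The 5 sequences below, all on the plus strand, come from 3 genes that were lower in Double skin and from 2 slow genes with another pattern, with every CANNTG in capitals. They lie at chr7:127211358-127211607 (Mylpf), chr7:19410844-19411093 (Ckm), chr11:67237562-67237811 (Myh4), chr14:31208062-31208311 (Tnnc1) and chr9:110763428-110763677 (Myl3).
Mylpf: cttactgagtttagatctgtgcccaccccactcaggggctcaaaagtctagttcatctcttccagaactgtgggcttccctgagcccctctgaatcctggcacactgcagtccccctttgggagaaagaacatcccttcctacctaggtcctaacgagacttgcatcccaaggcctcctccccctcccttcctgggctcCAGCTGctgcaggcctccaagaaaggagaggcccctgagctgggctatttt
Ckm: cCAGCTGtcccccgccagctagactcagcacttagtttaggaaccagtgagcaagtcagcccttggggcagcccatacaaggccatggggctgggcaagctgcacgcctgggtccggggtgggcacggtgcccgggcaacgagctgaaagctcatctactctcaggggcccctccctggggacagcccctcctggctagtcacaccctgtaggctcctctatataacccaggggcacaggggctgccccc
Myh4: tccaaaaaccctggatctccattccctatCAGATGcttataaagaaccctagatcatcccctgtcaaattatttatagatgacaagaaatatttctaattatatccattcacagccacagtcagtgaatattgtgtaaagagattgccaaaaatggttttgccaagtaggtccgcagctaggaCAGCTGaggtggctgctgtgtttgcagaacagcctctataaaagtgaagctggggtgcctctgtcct
Tnnc1: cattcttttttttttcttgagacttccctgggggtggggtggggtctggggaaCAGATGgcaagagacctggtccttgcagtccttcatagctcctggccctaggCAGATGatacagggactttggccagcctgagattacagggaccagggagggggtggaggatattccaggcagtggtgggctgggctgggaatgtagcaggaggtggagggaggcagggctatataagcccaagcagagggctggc
Myl3: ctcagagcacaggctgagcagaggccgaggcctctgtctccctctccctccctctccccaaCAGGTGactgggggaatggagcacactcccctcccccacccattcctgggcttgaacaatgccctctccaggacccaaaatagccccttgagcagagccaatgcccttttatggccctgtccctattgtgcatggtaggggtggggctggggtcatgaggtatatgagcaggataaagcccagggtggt
The Mylpf, Ckm and Myh4 windows hold 1 CAGCTG each, and those of Tnnc1 and Myl3 hold E-boxes of other letters only. These windows are examples and do not divide the members: a window of the slow gene Myl2 holds 1 CAGCTG. The windows of Eno3 and Pvalb, which were lower in Double skin, hold 0. Myh4 holds 1 MEF2 motif and 1 CArG box besides, and Myl3 1 CArG box.

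Double skin had lower levels of many muscle genes than control skin. Of the 35 members tested, 14 fell and 0 rose in Double against control, where 2.04% of all genes tested fell, 1.84% rose and 3.88% passed in either direction. The 14 were 8 of 16 fast genes, 1 of 8 slow genes and 5 of 11 genes of no one type. The median difference over the 35 was -1.07 on the log2 scale, against 0.03 over all genes tested. For 34 of the 35 the difference was below 0, as for 45.6% of all genes. At an unadjusted p under 0.05, 28 of the 35 were lower, against 9.29% of all genes. In 7 members (Myot, Mylpf, Actn3, Mb, Des, Ryr1 and Myoz2) every Double array lay below every control array, as for 4.76% of all genes.

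**Figure D1:**
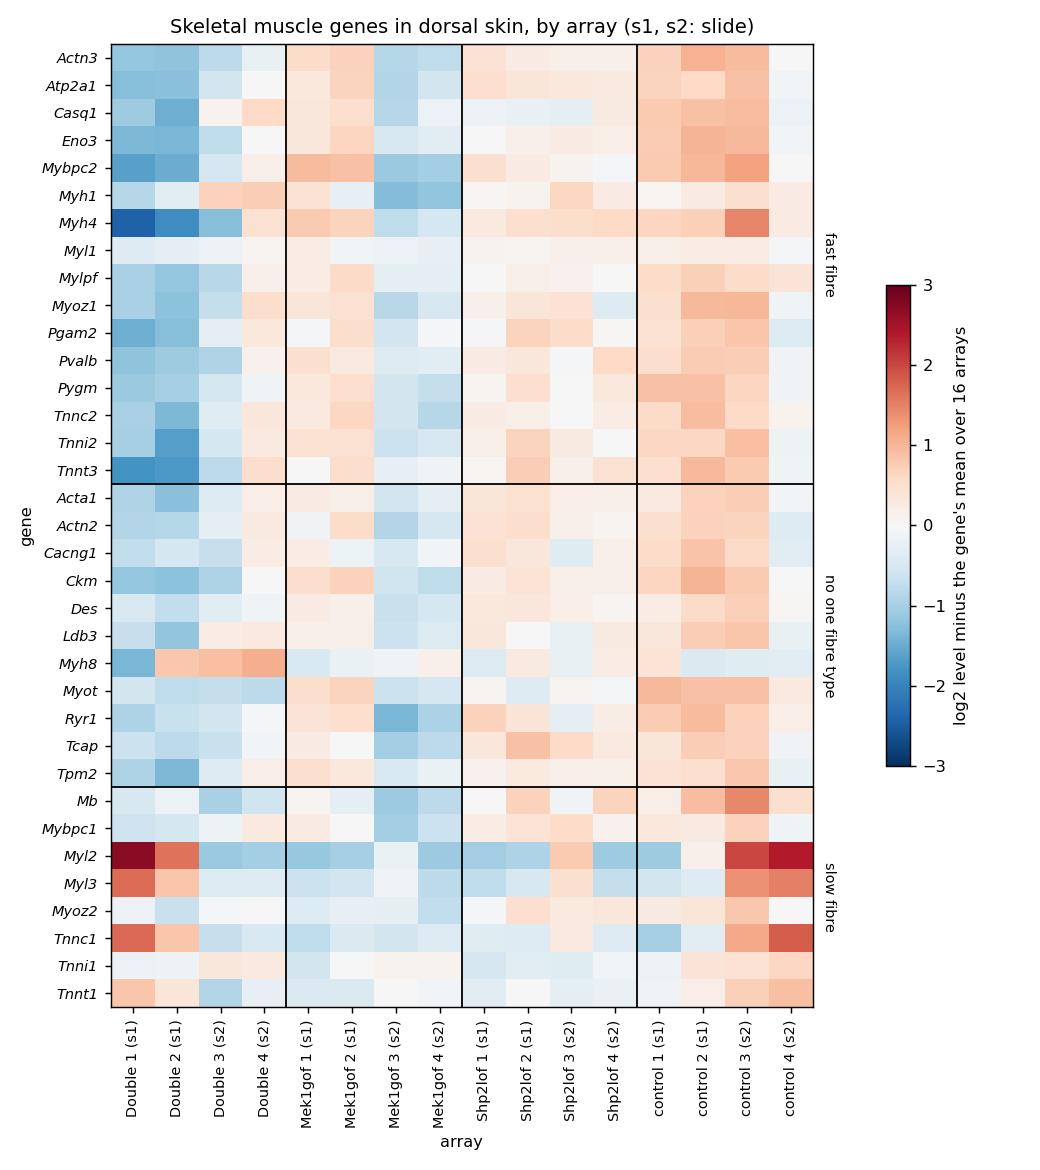
Log2 level of the 35 tested members on each of the 16 arrays, minus the member's mean over the arrays (blue lower, red higher); arrays are ordered Double, Mek1gof, Shp2lof and control, with the slide in parentheses. Most fast genes are low on Double 1 and 2 and on Mek1gof 3 and 4, while Myl2, Myl3, Tnnc1 and Tnnt1 are high on Double 1 and 2 and on control 3 and 4.

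Among the myosins, Myh4 and Mylpf fell. Myh4, the heavy chain of the fastest fibres, stood at 7.55, 8.12, 8.71 and 10.44 on the Double arrays, 10.77, 10.65, 9.23 and 9.46 in Mek1gof, 10.28, 10.47, 10.52 and 10.60 in Shp2lof and 10.62, 10.71, 11.46 and 10.24 in control. Double 4 reached the level of control skin and the other 3 Double arrays lay below it. The Double mean was 8.71 ± 1.25 and the control mean 10.76 ± 0.51 (SD, n = 4 each), a difference of -2.05 ± 0.47 (SE, adjusted p = 0.0201), or 4.14-fold lower. Mylpf, the fast regulatory light chain, stood at 12.43, 12.23, 12.57 and 13.55 on the Double arrays, 13.63, 13.97, 13.13 and 13.12 in Mek1gof, 13.38, 13.58, 13.53 and 13.38 in Shp2lof and 13.95, 14.10, 13.95 and 13.79 in control. All 4 Double arrays lay below all 4 control arrays, with a difference of -1.25 ± 0.23 (SE, adjusted p = 0.00837). The myosin heavy chain genes lie in a cluster and are alike in sequence, so signals of Myh1, Myh4 and Myh8 may include one another.

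Other myosin genes did not pass the test. Myh1, the other measured fast heavy chain, stood at 9.13, 9.64, 10.67 and 10.72 on the Double arrays, 10.42, 9.73, 8.69 and 8.79 in Mek1gof, 10.004, 10.09, 10.60 and 10.23 in Shp2lof and 10.03, 10.23, 10.45 and 10.22 in control. The control arrays lay within the range of the Double arrays, with Double minus control at -0.19 ± 0.36 (SE, adjusted p = 0.806), and its second probe gave a difference of 0.19 with the opposite sign. Myh8, the heavy chain of newborn muscle, stood at 7.96, 10.14, 10.24 and 10.42 on the Double arrays, 8.89, 9.14, 9.22 and 9.48 in Mek1gof, 8.93, 9.61, 9.10 and 9.56 in Shp2lof and 9.75, 8.90, 8.97 and 9.02 in control. Double 1 was the lowest of all arrays and the other 3 Double arrays the highest, and the difference of 0.53 ± 0.39 (SE, adjusted p = 0.459) did not pass. Mybpc2, the fast myosin-binding protein, differed by -1.61 ± 0.46 (SE, adjusted p = 0.0568). The fast essential light chain Myl1 differed by -0.33 ± 0.13 (SE, adjusted p = 0.164) at its brightest probe and by -0.9999 at its other probe (adjusted p = 0.0818 when every probe was tested). The brightest Myl1 probe lies near the top of the scale, with 3 to 12 probes above it on the control arrays, and quantile normalization gave it exactly the same level on control 2, control 3 and Mek1gof 1, so its difference is compressed there. The slow Mybpc1 differed by -0.54 ± 0.25 (SE, adjusted p = 0.233).

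In the thin filament, Acta1, a gene of no one fibre type, and the fast Tnnt3 fell. The other fast members had adjusted p-values just above the threshold. Acta1, skeletal alpha-actin, stood at 12.64, 12.28, 13.13 and 13.74 on the Double arrays, 13.78, 13.71, 12.95 and 13.24 in Mek1gof, 13.90, 13.99, 13.74 and 13.68 in Shp2lof and 13.83, 14.22, 14.27 and 13.46 in control. Double 1, 2 and 3 lay below the control range and Double 4 within it, with a difference of -0.998 ± 0.26 (SE, adjusted p = 0.0418). Tnnt3, the fast troponin that binds tropomyosin, stood at 8.43, 8.51, 9.43 and 10.75 on the Double arrays, 10.22, 10.75, 9.98 and 10.12 in Mek1gof, 10.29, 10.96, 10.40 and 10.69 in Shp2lof and 10.73, 11.20, 11.01 and 10.10 in control. Here too Double 4 lay within the control range, and the difference was -1.48 ± 0.38 (SE, adjusted p = 0.0359).

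The partners of Tnnt3 had differences of like size that did not pass. Tnni2, the inhibitory fast troponin, stood at 11.23, 10.59, 11.71 and 12.52 on the Double arrays, 12.68, 12.69, 11.58 and 11.74 in Mek1gof, 12.40, 12.90, 12.50 and 12.23 in Shp2lof and 12.85, 12.86, 13.14 and 12.07 in control. Its difference was -1.22 ± 0.35 (SE, adjusted p = 0.0567). Tnnc2, the calcium-binding fast troponin, stood at 11.88, 11.50, 12.49 and 13.17 on the Double arrays, 13.14, 13.46, 12.28 and 11.98 in Mek1gof, 13.10, 13.03, 12.83 and 13.06 in Shp2lof and 13.42, 13.76, 13.43 and 12.96 in control, a difference of -1.13 ± 0.33 (SE, adjusted p = 0.0582). In both genes only Double 4 overlapped the control arrays. Tpm2, a tropomyosin, differed by -0.99 ± 0.28 (SE, adjusted p = 0.0562).

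At the Z-disc, where thin filaments of neighbouring sarcomeres meet, 4 of 8 members fell. Myot, an actin-bundling protein of the Z-disc, had the smallest p of the members and stood at 6.52, 6.31, 6.36 and 6.30 on the Double arrays, 7.61, 7.74, 6.44 and 6.58 in Mek1gof, 7.16, 6.69, 7.15 and 7.03 in Shp2lof and 8.04, 7.95, 7.96 and 7.36 in control. The 4 Double arrays were close to one another and below every control array, and the difference was -1.45 ± 0.25 (SE, adjusted p = 0.00485). Actn3, the alpha-actinin of fast fibres, stood at 8.81, 8.77, 9.19 and 9.75 on the Double arrays, 10.53, 10.66, 9.11 and 9.20 in Mek1gof, 10.41, 10.21, 10.13 and 10.12 in Shp2lof and 10.66, 11.01, 10.92 and 9.98 in control. Its difference was -1.51 ± 0.32 (SE, adjusted p = 0.0154), with no overlap of the 2 groups, and all 3 of its probes passed. Des, the intermediate filament desmin, stood at 9.26, 8.97, 9.36 and 9.59 on the Double arrays, 9.94, 9.86, 9.03 and 9.18 in Mek1gof, 10.03, 10.05, 9.90 and 9.80 in Shp2lof and 9.92, 10.28, 10.42 and 9.73 in control. It differed by -0.79 ± 0.21 (SE, adjusted p = 0.0387), also with no overlap. Tcap, which caps titin at the Z-disc, stood at 7.96, 7.82, 7.94 and 8.52 on the Double arrays, 8.85, 8.62, 7.60 and 7.83 in Mek1gof, 8.96, 9.50, 9.19 and 8.91 in Shp2lof and 8.97, 9.36, 9.30 and 8.51 in control. It differed by -0.97 ± 0.26 (SE, adjusted p = 0.0420). The other 4, Actn2, Ldb3, Myoz1 and Myoz2, had differences of -0.80, -0.76, -1.18 and -0.59 that did not pass.

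Of the calcium-handling members, 2 of 5 fell. Atp2a1, the calcium pump of fast fibres, stood at 11.58, 11.60, 12.30 and 12.87 on the Double arrays, 13.19, 13.54, 11.98 and 12.30 in Mek1gof, 13.35, 13.23, 13.18 and 13.16 in Shp2lof and 13.52, 13.46, 13.73 and 12.79 in control. It differed by -1.28 ± 0.32 (SE, adjusted p = 0.0310), with Double 4 just above the lowest control array. Pvalb, the calcium buffer parvalbumin of fast fibres, stood at 12.23, 12.38, 12.54 and 13.57 on the Double arrays, 13.92, 13.74, 13.05 and 13.13 in Mek1gof, 13.69, 13.78, 13.40 and 14.04 in Shp2lof and 13.97, 14.21, 14.18 and 13.34 in control. It differed by -1.25 ± 0.27 (SE, adjusted p = 0.0173), and 3 of the 4 Double arrays lay below the control range. Ryr1, the calcium release channel, differed by -1.20 ± 0.34 (SE, adjusted p = 0.0573) at its brightest probe, and 2 of its other 3 probes passed when every probe was tested. Casq1, the calcium store protein of fast fibres, and Cacng1, a subunit of the muscle calcium channel, differed by -1.07 and -0.85 and did not pass.

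Of the energy genes, 4 of 5 fell. Eno3, the muscle enolase of glycolysis, stood at 9.69, 9.66, 10.26 and 11.03 on the Double arrays, 11.37, 11.68, 10.54 and 10.68 in Mek1gof, 11.04, 11.18, 11.28 and 11.23 in Shp2lof and 11.78, 12.05, 11.99 and 10.94 in control. Its difference was -1.53 ± 0.30 (SE, adjusted p = 0.0110). Ckm, the creatine kinase that restores ATP, stood at 10.29, 10.23, 10.52 and 11.44 on the Double arrays, 11.97, 12.15, 10.85 and 10.70 in Mek1gof, 11.70, 11.87, 11.62 and 11.63 in Shp2lof and 12.11, 12.48, 12.24 and 11.44 in control. Its difference was -1.45 ± 0.32 (SE, adjusted p = 0.0169), and Double 4 was level with control 4. Pygm, the glycogen phosphorylase of muscle, stood at 4.97, 5.09, 5.55 and 5.98 on the Double arrays, 6.39, 6.59, 5.53 and 5.37 in Mek1gof, 6.18, 6.59, 6.08 and 6.40 in Shp2lof and 6.97, 6.96, 6.74 and 5.97 in control, and differed by -1.26 ± 0.29 (SE, adjusted p = 0.0191). Mb, the oxygen store myoglobin and the only slow-fibre gene past the threshold, stood at 9.24, 9.54, 8.75 and 9.12 on the Double arrays, 9.81, 9.43, 8.64 and 8.93 in Mek1gof, 9.71, 10.41, 9.60 and 10.38 in Shp2lof and 9.92, 10.64, 11.16 and 10.21 in control. Its 4 Double arrays lay below every control array, with a difference of -1.32 ± 0.28 (SE, adjusted p = 0.0154), and its second probe passed as well. Pgam2, a glycolytic mutase, differed by -1.07 ± 0.35 (SE, adjusted p = 0.0933).

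**Figure D2:**
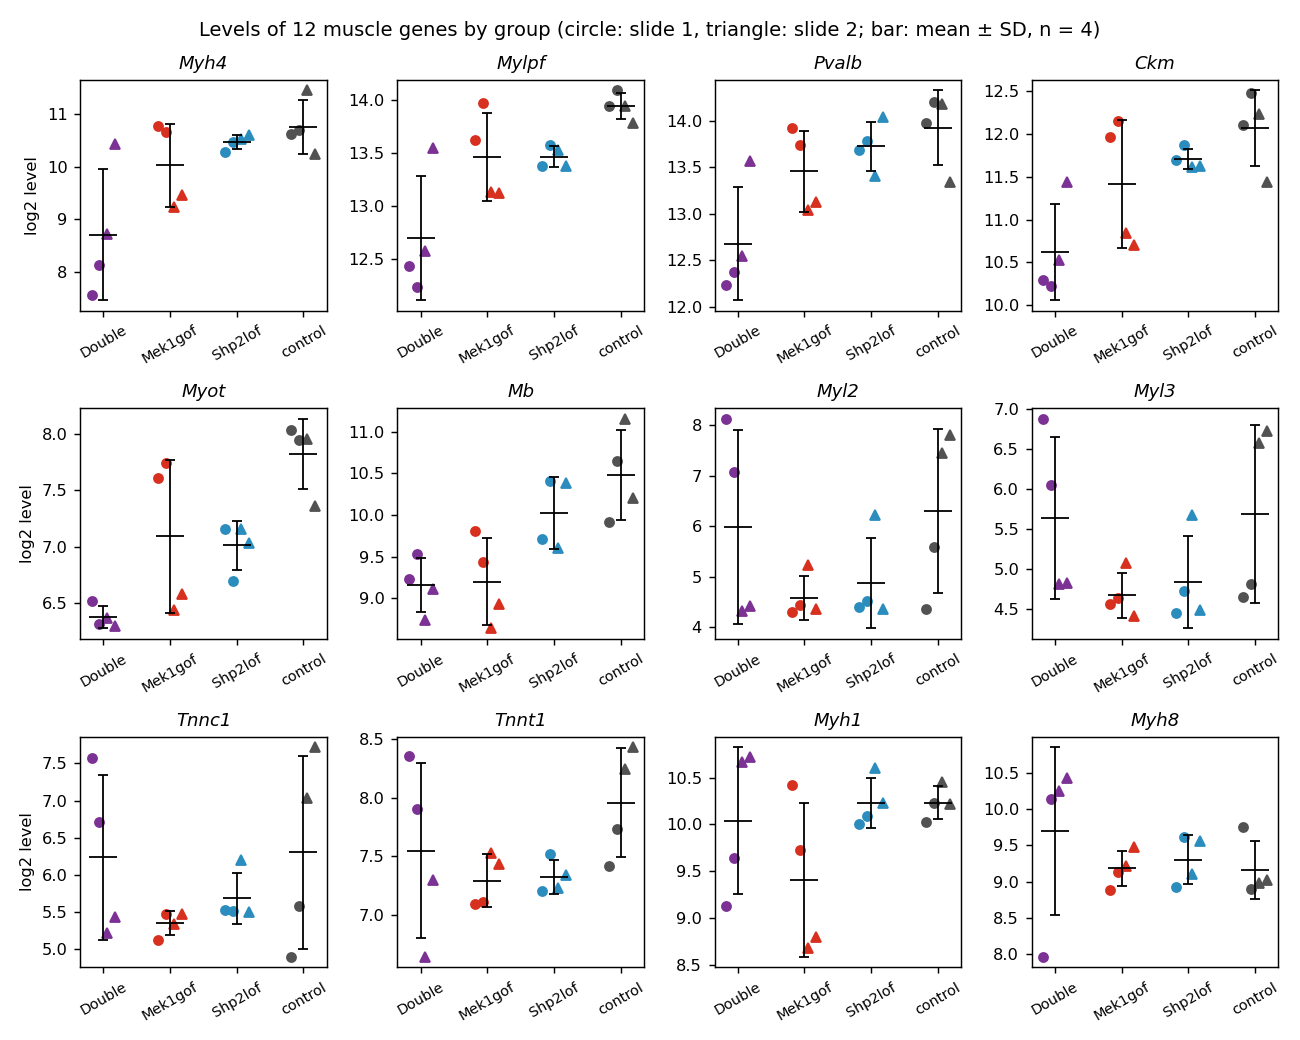
Log2 levels of 12 members by group, Double first and control last, with 1 point for each array (circle slide 1, triangle slide 2) and the mean ± SD of 4 arrays. Myot has no overlap between Double (6.30 to 6.52) and control (7.36 to 8.04), whereas Myl2, Myl3 and Tnnc1 have high and low arrays within both groups.

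Which arrays were in the fit set the count. Without control 2 or without control 3, 3 members passed in Double minus control, where 1.33% and 1.47% of all genes passed. Without Double 2, Double 3, control 1 or Double 1 it was 4, 6, 8 and 10, beside 1.77%, 1.92%, 2.58% and 4.81% of all genes. Without control 4 or without Double 4, 23 passed, beside 4.33% and 3.47%. Without the 3 arrays of unusual Xist and Eif2s3y levels, 24 passed, beside 2.84%. With only the Double and control arrays in the fit, Acta1 (adjusted p = 0.0991), Des (0.0515), Myh4 (0.0586) and Tnnt3 (0.109) no longer passed. With no detection filter, those 4 and Atp2a1 (0.0691) and Tcap (0.0794) did not pass. With slide as a block 15 members passed, the 14 among them, beside 5.04% of all genes. With the Eif2s3y level of each array as a covariate, a fit added with results in view, it was again 15 with the 14 among them, beside 4.71%. Eno3, Mylpf and Myot passed whichever array was left out, and Myot did so in every other setting as well.

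The change was not the same on both slides, and in Double the sex-linked genes differed between the slides too (Xist 9.13 and 10.04 on Double 1 and 2, 5.55 and 6.96 on Double 3 and 4), whose part in the slide difference was not tested. On slide 1 alone the median of the members in Double minus control was -1.58, with 25 lower (2.69% of all genes) and 3 higher (2.10%). On slide 2 alone it was -0.59, with 6 lower (3.78% of all genes) and 1 higher (2.59%). A test of the difference between the slides, added after the data had been seen, passed for 8 of the 35 members, 4 lower on slide 1 (Casq1, Mybpc2, Pygm and Tnnc2; 0.762% of all genes) and 4 higher on slide 1 (Myl2, Myl3, Tnnc1 and Tnnt1; 1.87%). Myl2 and Myl3 are in this count, in the 3 higher on slide 1 and in the 6 lower on slide 2. Both were tested only through the arrays where they are high. Casq1 was 2.08 ± 0.45 (SE) lower on slide 1 than on slide 2 in that difference (adjusted p = 0.0266). Myot differed by -1.58 on slide 1 and -1.33 on slide 2, and the test between slides gave an adjusted p of 0.680.

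**Figure D3:**
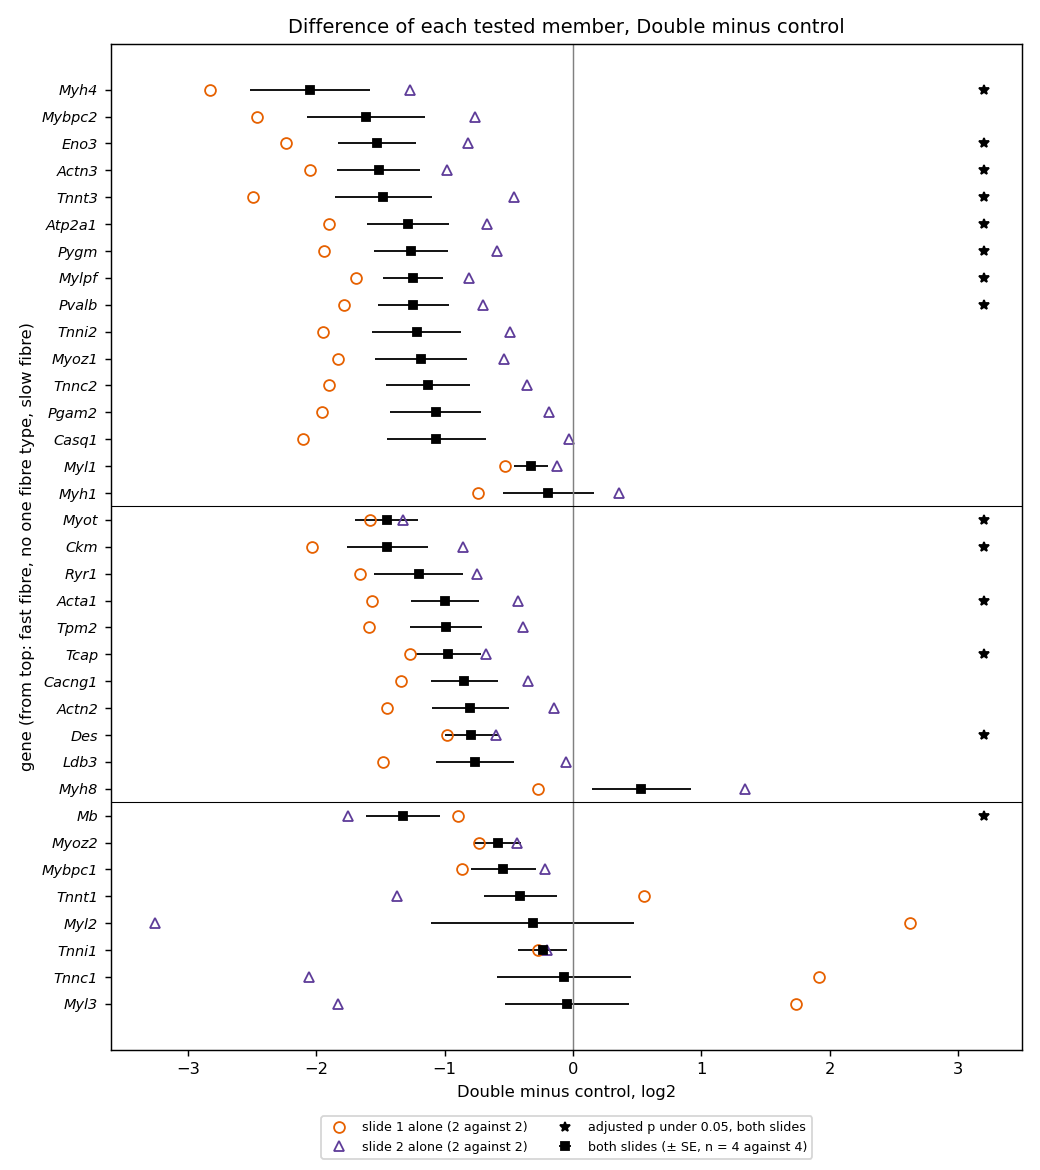
Difference Double minus control on the log2 scale for each tested member, over both slides (square with SE, 4 arrays against 4) and on slide 1 (circle) and slide 2 (triangle) alone (2 against 2), with stars for the 14 members past the threshold over both slides. For most fast genes both slides lie below 0 with slide 1 further, and for Myl2, Myl3, Tnnc1 and Tnnt1 slide 1 lies above 0 and slide 2 below.

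The slow-fibre genes Myl2, Myl3, Tnnc1 and Tnnt1 were high on some arrays and low on others within a group. Myl2, the regulatory light chain of slow fibres and of the heart's ventricles, stood at 8.13, 7.07, 4.31 and 4.42 on the Double arrays, 4.30, 4.43, 5.23 and 4.35 in Mek1gof, 4.40, 4.51, 6.22 and 4.36 in Shp2lof and 4.37, 5.58, 7.44 and 7.81 in control. It was detected on 2 Double, 1 Mek1gof, 1 Shp2lof and 3 control arrays, and was high on Double 1 and 2 and control 3 and 4. Myl3, their essential light chain, stood at 6.88, 6.05, 4.81 and 4.83 on the Double arrays, 4.57, 4.64, 5.07 and 4.42 in Mek1gof, 4.45, 4.73, 5.68 and 4.49 in Shp2lof and 4.65, 4.81, 6.58 and 6.72 in control. It was detected on 2, 1, 1 and 2 arrays of the 4 groups. Tnnc1, the calcium-binding troponin they share, stood at 7.58, 6.71, 5.21 and 5.43 on the Double arrays, 5.12, 5.47, 5.33 and 5.47 in Mek1gof, 5.52, 5.51, 6.20 and 5.50 in Shp2lof and 4.89, 5.57, 7.04 and 7.72 in control. The same 4 arrays were the highest in both genes, and Shp2lof 3 was the next. Tnnt1, the slow troponin that binds tropomyosin, stood at 8.35, 7.90, 6.64 and 7.29 on the Double arrays, 7.09, 7.11, 7.53 and 7.44 in Mek1gof, 7.21, 7.52, 7.23 and 7.34 in Shp2lof and 7.42, 7.73, 8.24 and 8.43 in control. Control 4 and Double 1 were its highest arrays and Double 3 its lowest.

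Over all 16 arrays these genes gave no difference between Double and control that passed. Myl2 differed by -0.32 ± 0.79 (SE, adjusted p = 0.862), Tnnc1 by -0.07 ± 0.52 (SE, adjusted p = 0.957), and Tnnt1 by -0.41 ± 0.28 (SE, adjusted p = 0.429). Within a slide the differences were of opposite sign. Tnnc1, detected on every array, was 1.92 higher in Double on slide 1, and on slide 2 its difference was -2.06. The change between the slides was 3.97 ± 0.44 for Tnnc1 (SE, adjusted p = 0.00199) and 1.92 ± 0.31 for Tnnt1 (SE, adjusted p = 0.0109). Myl2 and Myl3 changed the same way. No size or p-value is given for these, as the probes were not above background on Double 3 and 4, nor on control 1, nor for Myl3 on control 2, and both genes were tested only through the arrays where they are high. Heart muscle uses Myl2, Myl3 and Tnnc1 too. Of a list of 10 heart genes, 3 were tested, and 0 of them passed in Double against control (3.88% of all genes did). Of the others, Myh6, Myl7, Tnni3, Nppa, Mybpc3 and Ryr2 were not detected on enough arrays to be tested. Whether heart muscle added to these signals was not tested.

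Other slow genes did not share that pattern. Tnni1, the inhibitory slow troponin, stood at 5.03, 5.07, 5.56 and 5.51 on the Double arrays, 4.68, 5.23, 5.33 and 5.32 in Mek1gof, 4.72, 4.91, 4.86 and 5.13 in Shp2lof and 5.05, 5.60, 5.64 and 5.83 in control. It was detected on 12 arrays, 1 of them Shp2lof, and differed by -0.24 ± 0.19 (SE, adjusted p = 0.501) in Double against control. Mb, Mybpc1 and Myoz2, a slow-fibre Z-disc protein, varied with the mean of the other members instead. They did not follow the fast genes on every array. Mb stood higher on Double 1 and 2 (9.24 and 9.54) than on Double 3 and 4 (8.75 and 9.12). The correlation of a member with the mean of the other 34 over the 16 arrays, which share groups and slides and so are given as a description, was 0.79 for Mb, 0.86 for Mybpc1 and 0.77 for Myoz2. It was -0.17 for Myl2, -0.15 for Myl3, -0.14 for Tnnc1 and 0.02 for Tnnt1.

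Averaged over genes, each centred on its mean over all arrays, the level of the 16 fast genes was -1.23, -1.23, -0.51 and 0.25 on the Double arrays, 0.38, 0.48, -0.66 and -0.51 in Mek1gof, 0.16, 0.32, 0.21 and 0.19 in Shp2lof and 0.57, 0.77, 0.82 and -0.03 in control. Double 1 and 2 were the lowest and Double 4 lay above every Mek1gof array of slide 2 and above control 4. The level of the 8 slow genes was 0.68, 0.27, -0.49 and -0.26 on the Double arrays, -0.45, -0.37, -0.40 and -0.56 in Mek1gof, -0.35, -0.06, 0.20 and -0.17 in Shp2lof and -0.26, 0.20, 1.08 and 0.95 in control. Control 3 and 4 and Double 1 led it. The fast level averaged -0.68 ± 0.71 in Double, -0.08 ± 0.59 in Mek1gof, 0.22 ± 0.07 in Shp2lof and 0.53 ± 0.39 in control skin (SD, n = 4 each). In the fast level the Shp2lof arrays were much closer to one another than those of any other group. In the slow level the Mek1gof arrays were the closest (SD 0.084, against 0.23 in Shp2lof).

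**Figure D4:**
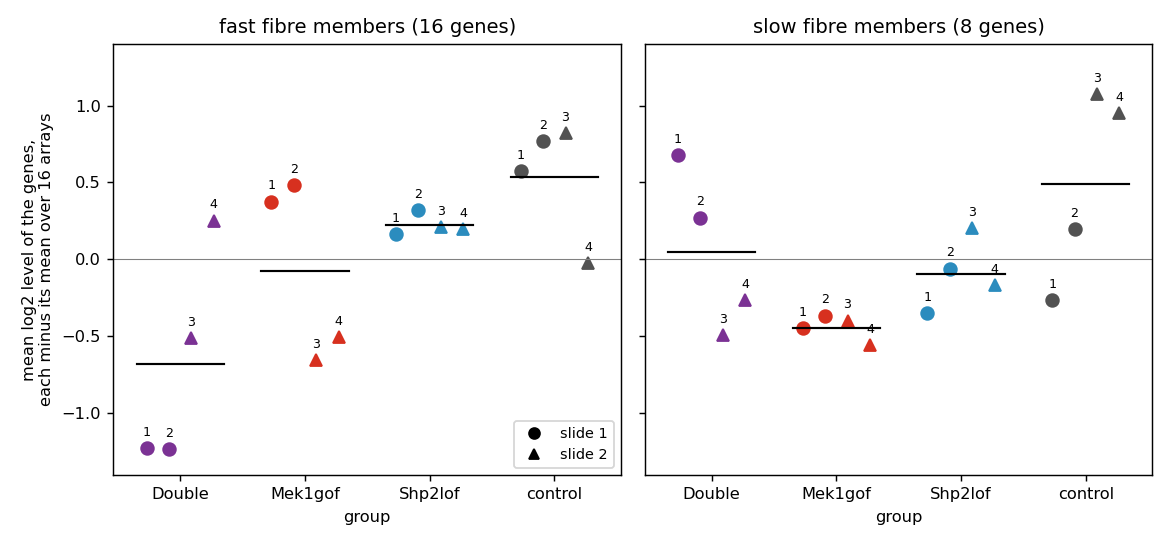
Mean centred log2 level of the fast (left) and slow (right) members on each array, numbered by replicate (circle slide 1, triangle slide 2), with a line at each group's mean. In the fast genes Double 1 and 2 lie at -1.23 and Mek1gof splits by slide, which in that group is also a split by Xist and Eif2s3y, and in the slow genes Double 1 (0.68) and control 3 and 4 (1.08 and 0.95) stand above the rest.

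In Mek1gof against control skin, 0 of the 35 members passed, where 0.508% of all genes did, and at an unadjusted p under 0.05 12 were lower, against 4.60% of all genes. The median was -0.65 (all genes 0.02). Mb came closest, with a difference of -1.28 ± 0.28 (SE, adjusted p = 0.0508). Its second probe gave -1.23 (adjusted p = 0.0420 when every probe was tested). Myoz2 stood at 6.96, 6.47, 7.06 and 7.14 on the Double arrays, 6.74, 6.90, 6.84 and 6.40 in Mek1gof, 7.11, 7.64, 7.43 and 7.47 in Shp2lof and 7.40, 7.50, 7.93 and 7.15 in control, with every Mek1gof array below every control array and a difference of -0.78 ± 0.18 (SE, adjusted p = 0.0683). Myoz2 and Mb were the 2 members with no such overlap, as were 2.51% of all genes. On slide 1 alone 0 members passed, 5 were lower at an unadjusted p under 0.05 (5.69% of all genes) and the median was -0.31. On slide 2 alone 9 were lower (Actn3, Mb, Mybpc2, Myh1, Myl2, Myl3, Myot, Ryr1 and Tnnc1; 0.938% of all genes) and the median was -0.94. Of these, Myl2 and Myl3 were tested only through the arrays where they are high. The difference between the slides passed in 2 of the 35, Myh1 and Tnnc1, both higher on slide 1 (0.342% of all genes). The Mek1gof arrays of the slides differ in Xist as well (9.29 and 8.82 on slide 1, 5.02 and 5.77 on slide 2). With slide as a block Mb passed (adjusted p = 0.0387), beside 0.821% of all genes. Without Double 2, 2 members passed in Mek1gof minus control (0.713% of all genes), and without control 1, control 4 or Mek1gof 1 there was 1 (0.381%, 0.528% and 0.498%). Without the 3 arrays of unusual Xist and Eif2s3y levels it was 0 (0.323%).

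In Shp2lof against control skin, 0 of the 35 passed (2.55% of all genes did), and 3 were lower at an unadjusted p under 0.05, against 7.11% of all genes. The median was -0.33 (all genes 0.02). Tnni1 differed by -0.63 ± 0.19 (SE, adjusted p = 0.0937), with its probe detected on 1 of 4 Shp2lof arrays and 4 of 4 control arrays, so that its Shp2lof level lies mostly at the background. With slide as a block Tnni1 passed (adjusted p = 0.0249), beside 3.00% of all genes. Myot differed by -0.81 ± 0.25 (SE, adjusted p = 0.0978), and every Shp2lof array lay below every control array. The same held for Mylpf, with a difference of -0.48, and this non-overlap of 2 of 35 members stands beside 4.90% of all genes. Myh4 had a difference of -0.29. Without control 1, 1 member passed (1.95% of all genes), and with only the compared groups in the fit Myot passed (adjusted p = 0.0197). Without the 3 arrays of unusual Xist and Eif2s3y levels 0 passed (1.35%).

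Double against each single mutant shares the Double arrays with the comparison above, so the values stand beside it and add no independent evidence. In Double against Shp2lof skin 0 of the 35 passed (0.968% of all genes did) and 25 were lower at an unadjusted p under 0.05, against 6.75% of all genes. The median was -0.75. Tcap differed by -1.08 ± 0.26 (SE, adjusted p = 0.0530) and Pvalb by -1.05 ± 0.27 (SE, adjusted p = 0.0771). All 4 Double arrays lay below all 4 Shp2lof arrays in 9 members, as for 3.33% of all genes. With slide as a block Tcap passed (adjusted p = 0.0337), beside 1.54% of all genes, and with only the compared groups it passed too (adjusted p = 0.0220). Without Double 4, 11 members passed (1.30% of all genes), and without control 4, Mek1gof 1, Mek1gof 3 or Double 1 there was 1 (1.19%, 1.18%, 1.08% and 1.32%). Without the 3 arrays of unusual Xist and Eif2s3y levels it was 9 (1.02%).

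In Double against Mek1gof skin 0 of the 35 passed (0.283% of all genes did) and 9 were lower at an unadjusted p under 0.05, against 4.89% of all genes. The median was -0.41. Mylpf differed by -0.77 ± 0.23 (SE, adjusted p = 0.288) and Eno3 by -0.91 ± 0.30 (SE, adjusted p = 0.341). The slides gave opposite signs, a median of -1.26 on slide 1 and 0.31 on slide 2. The difference between the slides passed in 19 members, 16 of them lower on slide 1 (0.762% of all genes) and 3 higher, Myl2, Tnnc1 and Tnnt1 (0.508%). Myl2 was tested only through the arrays where it is high. Mybpc2 moved most among the fast genes, by -3.38 ± 0.43 between slides (SE, adjusted p = 0.00317). Without Double 4, 3 members passed in Double minus Mek1gof (0.127% of all genes), and without Double 1 there was 1 (0.352%). Without the 3 arrays of unusual Xist and Eif2s3y levels 0 passed (0.00977%).

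Mek1gof against Shp2lof skin gave 0 of 35 past the threshold (2.76% of all genes), with 6 lower at an unadjusted p under 0.05 (6.11% of all genes) and a median of -0.30. Myoz2 differed by -0.69 ± 0.18 (SE, adjusted p = 0.0520) and Tcap by -0.91 ± 0.26 (SE, adjusted p = 0.0727). The factorial interaction, the Shp2lof effect with the Mek1 allele minus that effect without it, passed in 0 of 35 (0.088% of all genes), with 0 lower and 4 higher at an unadjusted p under 0.05 (3.11% of all genes were higher). Its median over the members was -0.07. Tnni1 had an interaction of 0.78 ± 0.27 (SE, adjusted p = 0.492) and Myl3 of 1.82 ± 0.68 (SE, adjusted p = 0.559). Both values rest in part on background levels. Myl3 was detected on 1 of 4 Mek1gof and 1 of 4 Shp2lof arrays, and Tnni1 on 1 of 4 Shp2lof arrays. Without control 3, control 4, Shp2lof 1, Mek1gof 1 or Double 2, 1 member passed in Mek1gof minus Shp2lof, beside 2.35%, 2.61%, 1.91%, 2.24% and 2.70% of all genes. Without the 3 arrays of unusual Xist and Eif2s3y levels 0 passed in Mek1gof minus Shp2lof (1.15%) and 0 in the interaction (0.0489%).

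Replicates of a group differed widely in these genes. The median over genes of the replicate SD was 0.50 for the 35 members and 0.24 for all genes tested. Among genes with a mean level of 8 or more it was 0.52 for 24 members and 0.21 for 4369 genes. The members varied together: the correlation of a member with the mean of the others had a median of 0.91 in the fast genes, 0.89 in those of no one type and 0.08 in the slow genes. Desmin had the highest, 0.96. As each value uses the same 16 arrays, no test is attached.

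The 10 genes outside the module whose levels followed its mean most closely over the 16 arrays were Ank1 (r = 0.96), Adssl1 (0.95), Pde4dip (0.94), Neurl1a (0.94), Tmod1 (0.94), Cox6a2 (0.93), Ckmt2 (0.93), Scn4b (0.92), Ampd1 (0.92) and Tmod4 (0.92). Tmod1 and Tmod4 encode tropomodulins, which cap the thin filament. Cox6a2 is the muscle form of a cytochrome c oxidase subunit, Ckmt2 the creatine kinase of muscle mitochondria, and Ampd1 the AMP deaminase of muscle. As the choice by likeness on the same arrays bears on their direction, their differences in Double minus control are a description with no test, and ran from -1.48 for Ckmt2 to -0.80 for Tmod1. The lowest correlations were those of Psat1 (-0.91), an enzyme of serine synthesis, Pxylp1 (-0.86) and Vsnl1 (-0.86).

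Genes of skeletal muscle outside the module made a list of 58, of which 41 were tested. In Double against control 12 of the 41 fell and 0 rose (2.04% of all genes fell), with a median of -0.72. Among them were Cox8b (-1.23), a muscle form of a cytochrome c oxidase subunit, Rpl3l (-1.20), a ribosomal protein of striated muscle, Slc2a4 (-1.03), the insulin-responsive glucose transporter, and Cox7a1 (-1.03), another such oxidase subunit. Without control 3, control 2 or Double 2 the count was 0, 1 and 4, in fits whose shares of all genes are given above. It was 21 on slide 1 alone (2.69% of all genes lower and 2.10% higher) and 2 on slide 2 alone (3.78% and 2.59%). In Mek1gof and in Shp2lof against control 0 of the 41 passed with limma, and at an unadjusted p under 0.05 9 and 2 were lower, beside 4.60% and 7.11% of all genes. A list of regulators had 6 genes tested, the myogenic factors Myf6, Myog, Mef2a, Mef2c and Vgll2 and also Myc, a growth regulator that is not specific to muscle. Of these Myf6, a MyoD-type factor of mature fibres, fell in Double (-1.24, adjusted p = 0.0269), and Mef2c fell in Shp2lof (-0.70, adjusted p = 0.0263). Myod1, Myf5 and Pax7 were not detected on enough arrays to be tested.

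Markers of the other cell types in skin were read on the same arrays. In Double against control 0 of 9 smooth muscle, 0 of 8 white fat, 0 of 8 fibroblast, 0 of 8 keratinocyte, 0 of 7 endothelial, 0 of 4 Schwann cell and nerve and 0 of 4 blood cell genes passed with limma. At an unadjusted p under 0.05 these lists had 2, 2, 1, 1, 0, 1 and 0 genes lower (9.29% of all genes) and 0, 1, 1, 0, 0, 1 and 0 genes higher (11.5%). Their medians were -0.23, -0.19, -0.22, -0.16, -0.07, -0.02 and 0.00. The keratinocyte level ran between -0.59 and 0.21 in Double and between -0.13 and 0.27 in control skin, and the smooth muscle level between -0.38 and 0.10 in Double and between -0.08 and 0.22 in control skin. In Shp2lof against control, the smooth muscle actin Acta2 rose by 0.65 (adjusted p = 0.0366), 1 of 9 smooth muscle genes, where 1.51% of all genes rose. The fibroblast genes Col1a1, Col1a2 and Sparc fell there, 3 of 8, where 1.05% of all genes fell. Of 4 brown fat genes tested, Elovl3 rose and Ppargc1a and Cox7a1 fell in Double against control, where 1.84% of all genes rose and 2.04% fell. Cox7a1 is also on the list of skeletal muscle genes above. Of the cardiac genes 0 of 3 passed in Double against control (1 lower at an unadjusted p under 0.05). The brown fat genes Ucp1, Dio2 and Prdm16 were not detected on enough arrays to be tested. Whether other cell types had a part in the muscle differences was not tested.

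**Figure D5:**
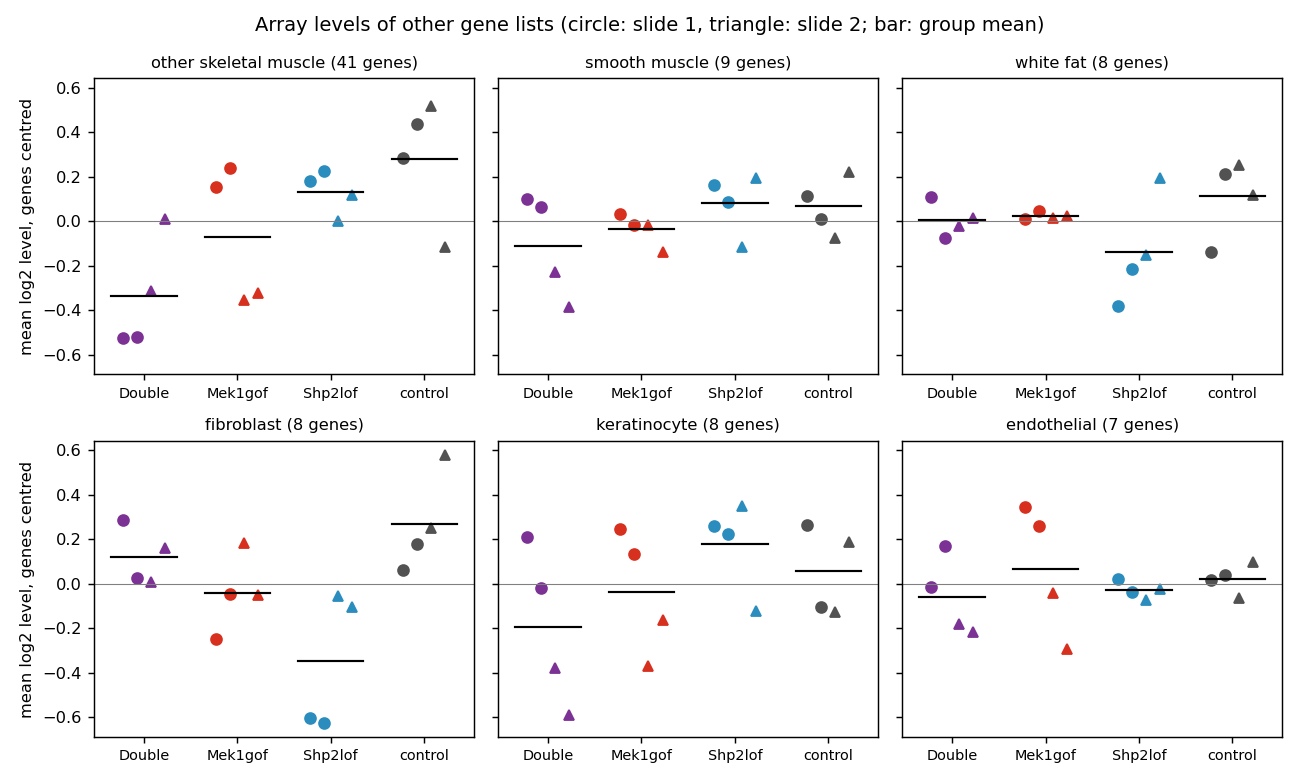
Mean centred log2 level of 6 other gene lists on each array (circle slide 1, triangle slide 2; line, group mean), with Double on the left and control on the right of each panel. The 41 other skeletal muscle genes are lowest on Double 1 and 2 (-0.53 and -0.52) and highest on control 3 (0.52), with Double 4 (0.01) above control 4 (-0.11). All 6 lists overlap between Double and control.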

How the data were processed

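Dorsal skin RNA from 4 groups of 4 samples was hybridized to bead arrays, per the labels. The deposited table gives the mean bead intensity of 25697 probes on a linear scale, not normalized between arrays, and a detection p-value deposited beside each. The submitters' processing notes name GenomeStudio, with no version given in the sources used here. A second deposited table, the series matrix, holds the same intensity values with differences up to 0.05.

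Background correction and quantile normalization used the neqc function (limma 3.58.1, R 4.3.3; offset 16) and gave log2 levels. The offset shrinks differences near the background. Probes were kept with a detection p below 0.05 on at least 4 arrays and 1 gene symbol in the supplied probe table (13765 probes). The probe with the highest mean stood for a gene. limma (lmFit, eBayes) was fitted to all 16 arrays with a mean per group (12 residual degrees of freedom, 5.74 from the prior) for 7 comparisons, with Benjamini-Hochberg adjustment over 10232 genes. The fit was tested on simulated data with independent noise in each gene, whereas the members varied together. Figures were made in Python 3.11.15 with matplotlib 3.10.9.

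The members, lists and roles were chosen with earlier results of these data known. Levels on every array are given for a set of members named by hand, for every member past the threshold and for the 2 members with the smallest p of each comparison. Other lists give up to 4 genes past the threshold, or the 2 with the smallest p where none passed. Outside the members, the 10 genes most and the 3 least correlated with them are named. Named among the heart, fat and regulator genes besides are those that could not be tested. The alternatives were other normalizations and offsets, other filters and probe choices, the groups alone, array weights, slide and replicate blocks, single slides and each array left out. The fits without 3 arrays and with the Eif2s3y level as a covariate and the test between slides came later, with results in view. Precision is limited by how many arrays there are.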

Additional observations from a re-analysis of the deposited data

Results flagged for a closer look

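Of 112 sets of 4 values checked (24 members and 4 array levels in each group), 7 held an array far from the other 3: the gap to its nearest neighbour, as a share of the whole range, was above Dixon's limit for 4 samples. Chance gives about 1 in 20. Myh8 was low on Double 1 (0.886 of the range) and high on control 1 (0.851). Myl2 was high on Shp2lof 3 (0.915) and on Mek1gof 3 (0.854), and Tnnc1 was high on Shp2lof 3 (0.970). Myot was low on control 4 (0.865), and Tnni1 was low on Mek1gof 1 (0.852).

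In 2 members every array of one group lay below its reference group's mean, while every array of another lay above its reference mean. For Myl3 the effect of the Shp2 allele, in Double minus Mek1gof against Shp2lof minus control, differed by 1.82, and the interaction had an adjusted p of 0.559 in limma, with the probe detected on 6 of 16 arrays. For Tnni1 the effect of the Mek1 allele, in Double minus Shp2lof against Mek1gof minus control, differed by 0.78, with an adjusted p of 0.492 in limma and the probe detected on 12 of 16 arrays. Neither interaction passed the threshold. For Myl3, Shp2lof 3 (5.68) lay just below the control mean (5.69), and control 1 and 2 (4.65 and 4.81) lay within the Shp2lof range. Myl3 was tested only through the arrays where it is high.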

How the results depend on the processing

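Leaving out each array in turn gave 3 to 23 members past the threshold in Double minus control (median -1.31 to -0.87), 0 to 11 in Double minus Shp2lof, 0 to 3 in Double minus Mek1gof, 0 to 2 in Mek1gof minus control, 0 to 1 in Shp2lof minus control and in Mek1gof minus Shp2lof, and 0 to 18 of the other skeletal muscle genes in Double minus control. The share of all genes called changes with the fit too, and for the leave-out fits named above it stands beside the count. Below, 2 numbers in parentheses with no percent sign are how many of all genes tested were called lower and higher. In Double minus control the count was 8 with no detection filter, 28 on slide 1 alone (median -1.58), 7 on slide 2 alone (median -0.59) and 24 without the 3 arrays of unusual Xist and Eif2s3y levels. The other skeletal muscle genes gave 21 on slide 1 alone and 2 on slide 2 alone, beside the same shares of all genes. Double minus Shp2lof gave 7 with unnormalized signals or the series matrix (164 and 14 in each) and 2 with only the groups compared (50 and 33). It gave 1 with array weights (93 and 57) or with slide as a block (91 and 67). It gave 27 (median -1.34) and 1 (median -0.29) on slides 1 and 2 alone, and 9 without the 3 arrays (56 and 48). The 27 were 24 lower and 3 higher (1.36% and 1.48% of all genes). On slide 2 alone 0 were lower and 1 higher (1.91% and 0.801%). Double minus Mek1gof gave 25 (median -1.26) and 1 (median 0.31) on slides 1 and 2 alone, where Eno3 turned to 0.033 on slide 2 (adjusted p = 0.987). The 25 were 21 lower and 4 higher (1.28% and 0.596% of all genes). On slide 2 alone 0 were lower and 1 higher (0.42% and 0.323%). Mek1gof minus control gave 1 with unnormalized signals or the series matrix (0.235% of all genes in each). It gave 1 with the mean of a gene's probes (12 and 35) and with every probe on its own (22 and 35 probes). With slide as a block it was 1 (29 and 55) and with array weights 2 (49 and 66). On slide 2 alone 9 were lower and 0 higher (0.938% and 0.948% of all genes), and the median on slide 1 alone was -0.31. Shp2lof minus control gave 1 with only the groups compared (187 and 221) or with slide as a block (131 and 176), and 2 with array weights (217 and 246). On slide 1 alone 2 were lower and 0 higher (0.44% and 0.616% of all genes). On slide 2 alone 4 were lower and 0 higher (0.762% and 0.948%). Mek1gof minus Shp2lof gave 2 with unnormalized signals or the series matrix (2.8% of all genes in each) and 2 with array weights (136 and 182). It gave 1 with the mean of a gene's probes (125 and 166) or only the groups compared (111 and 147). On slide 2 alone 3 were lower and 0 higher (1.2% and 0.821% of all genes, median -0.64). In the interaction 2 were lower and 1 higher on slide 1 alone (0.0195% and 0.0586% of all genes, median -0.91). On slide 2 alone 0 were lower and 1 higher (0.195% and 0.156%, median 0.60). The causes were not tested.

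The main fit did not pair the samples by replicate number. Of 24 pairs with the same number, 9 had deviations from the group means correlated above 0.1 (-0.23 to 0.38, median 0.06). Of 24 pairs on the same slide with another number it was 6 (median -0.008), and of 48 pairs on different slides 6 (median -0.03). Whether the numbers mark a pairing was not tested. With the replicate block, Acta1 was the only one of the 14 members above that did not pass in Double minus control (adjusted p = 0.0629). In Shp2lof minus control 1 passed (Tnni1, adjusted p = 0.0159), where 124 of all genes were called lower and 160 higher. In Mek1gof minus control 1 passed (Mb, adjusted p = 0.0486), where 38 of all genes were called lower and 47 higher. With the Eif2s3y level as a covariate the count was 15 in Double minus control, whose share of all genes is given above. It was 0 in each other comparison, with no share given here. Fits on 1 slide rest on 2 arrays against 2. The spread of the slow genes near the background, with Myl2 detected on 7 arrays and Myl3 on 6, limits what they show. Counts on single slides that include these 2 genes rest in part on background levels.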
